A study of Homo sapiens with 16 samples.

Results

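Interferon-stimulated genes are described here as 46 genes given by symbol, each matched to 1 Ensembl identifier of the count tables, out of 60719 identifiers in all. They were followed in MDA-MB-231, an established line of human breast cancer cells of the triple-negative class, in 16 RNA sequencing libraries. The study deleted TXNIP, an inhibitor of glucose uptake, with CRISPR-Cas9, and the resulting 231:TKO cells were isolated as single-cell clones and compared with parental 231 cells that carry TXNIP. Untreated parental 231 and untreated 231:TKO had 2 libraries each, and the other 4 groups had 3 libraries each: parental 231 and 231:TKO given a non-targeting siRNA (siNT), and parental 231 and 231:TKO given an siRNA against Myc (siMyc), all for 48 hours. The labels name no interferon treatment. Clones grown from single cells can differ from the parental line in more than the deleted gene. The labels number the replicates, and nothing in them says whether same-numbered libraries share a culture or a day, so p-values measure the spread between these libraries.

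Interferons are secreted proteins that bind receptors on the cell surface. In the type I and type III pathways, the receptors activate the kinases JAK1 and TYK2. A complex that includes STAT2 and IRF9 then binds the interferon-stimulated response element, or ISRE, in front of the genes studied here. The products block viral entry, degrade or sequester viral RNA, and report foreign RNA, and some of them are also transcribed at a basal level in cancer cell lines without added interferon.

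All 46 genes had counts in all 16 libraries and all 46 passed the filter on low counts in every comparison. Total counts lay between 18953668 and 59799444 per library, at which 3 counts correspond to 0.0502 to 0.158 CPM, the counts of a gene scaled to a common library size. MYC was at 127 to 132 CPM in parental 231+siNT and at 64.5 to 67.6 in parental 231+siMyc, and at 121 to 144 and 58.1 to 58.8 in the same treatments of 231:TKO. TXNIP was at 283 CPM in both untreated parental 231 libraries and at 12.4 and 45.5 in untreated 231:TKO. The mesenchymal markers VIM, CD44, AXL and CAV1 were at 571 CPM or more in every library, whereas ESR1 and PGR stayed at or below 0.305, and ERBB2 (76.2 to 106 CPM) and EPCAM (12.2 to 31.3) were detected. CDH1, the epithelial cadherin, was at 4.13 to 9.42 CPM in parental 231 and at 0.267 to 1.08 in 231:TKO. Its log2 fold changes were -3.85 untreated, -3.10 with siNT and -3.07 with siMyc. VIM was also called lower in 231:TKO with siNT (-0.53) and siMyc (-0.60), and EPCAM with siNT alone (-0.47). CD44 (0.61 and 0.55), AXL (0.42 and 0.34) and the barely detected ESR1 (3.18 and 3.22) were called higher with siNT and siMyc. CAV1 and ERBB2 were called in neither, and of all these markers only CDH1 was called untreated. Of the leukocyte and blood markers, MS4A1 and HBB had 0 counts and CD3E had 2 counts over all libraries, PTPRC was at most 1.48 CPM, LYZ at most 3.93, CSF1R at most 9.61 and CD14 at most 26.1. PTPRC was called lower in 231:TKO untreated (-3.79), with siNT (-6.07) and with siMyc (-4.68). CD14 was called lower with siNT (-1.77) and siMyc (-1.40), and LYZ with siNT (-1.51) and siMyc (-1.30). CSF1R went the other way and was called higher in 231:TKO with siNT (0.67) and siMyc (0.79). The part of these differences in the results below was not tested. Parental 231+siNT replicate 1 and parental 231+siMyc replicate 3 stood apart from the other replicates of their groups. The chi-square per degree of freedom over genes was 85.5 to 99.1 for pairs of libraries that held one of them, and 2.49 and 10.3 for the pairs without. In both of them longer genes read lower: over 13448 genes at 1 CPM or more, the difference from the other replicates had a Pearson correlation with log2 gene length of -0.58 and -0.57, and over the 46 genes one of -0.66 and -0.73. Counts that rest on these libraries, and the values of single genes that they moved across the threshold or by over 1.5 times, are given with and without them.

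The siRNA-treated parental 231 libraries were counted with a newer Ensembl release and all other libraries with an older one. For 20 of the 46 genes (43.5%) the annotated exon length differed between the releases, against 2.58% of all 60620 shared identifiers. OAS1 grew from 4964 to 13021 bases. The other gene models that more than doubled were those of DDX60, IFITM3, OAS3 and MX1. IFITM1 lies on chromosome 11 from 313506 to 315272 inside the span of IFITM2. In the older release it shared 351 of its 936 exon bases (37.5%) with IFITM2. In the newer release its largest overlap was with another gene, and IFITM2 shared at most 31 bases with any single gene. The release, the sequencing request and the genotype cannot be told apart in comparisons of the siRNA-treated populations, so counts are given below also for the 26 genes of equal length. The responses to siMyc compare libraries of one release.

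RefSeq promoters (GRCh38.p14, 250 bases before to 50 after the start site) were given for 37 of the 46 genes. The ISRE core, GAAA followed by any 2 bases and a second GAAA, on either strand, was present in 26 of these 37 (70.3%) and in 4.38% of 27305 genes with a promoter. The GAS motif of interferon-gamma signalling, TTC and GAA around 3 bases of any kind, was present in 35.1% against 9.38%, and its letters can share bases with the ISRE core. CACGTG, the E-box that Myc can bind, was present in 4 of 37 (10.8%), in HERC5, IRF9, ISG20 and 1 of the 2 promoters of SP100, against 8.77% of all. OAS1, STAT2, HERC6, IRF9, UBE2L6, IRF1, IFI35, XAF1, SAMD9L, SP100 and CMPK2, whose values are also given below, had promoters without the ISRE core. The stretches below are from genes that hold the core and whose values are used in the comparisons that follow. Where a gene had several promoters, the stretch is from the one with the most cores. The ISRE core is in capitals, and each is read 5′ to 3′ on the strand of its gene.
ISG15 (chr1:1013349-1013434, plus strand): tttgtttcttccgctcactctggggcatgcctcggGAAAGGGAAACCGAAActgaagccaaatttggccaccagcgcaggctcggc
IFIT1 (chr10:89392472-89392564, plus strand): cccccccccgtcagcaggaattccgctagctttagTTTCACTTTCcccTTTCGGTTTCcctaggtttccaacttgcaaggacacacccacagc
IFIT3 (chr10:89327806-89327919, plus strand): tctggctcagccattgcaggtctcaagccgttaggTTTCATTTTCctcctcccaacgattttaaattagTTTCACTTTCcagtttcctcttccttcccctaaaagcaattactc
RSAD2 (chr2:6877597-6877676, plus strand): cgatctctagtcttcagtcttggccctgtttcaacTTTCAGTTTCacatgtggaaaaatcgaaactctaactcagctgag
MX1 (chr21:41420534-41420607, plus strand): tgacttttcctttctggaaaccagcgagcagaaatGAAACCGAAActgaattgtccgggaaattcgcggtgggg
GBP3 (chr1:89022820-89022899, minus strand): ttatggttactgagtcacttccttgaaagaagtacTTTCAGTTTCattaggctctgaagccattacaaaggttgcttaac
IFI27 (chr14:94110593-94110685, plus strand): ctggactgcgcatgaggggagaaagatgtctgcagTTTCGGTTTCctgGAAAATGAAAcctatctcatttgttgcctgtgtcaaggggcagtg
BST2 (chr19:17405710-17405795, minus strand): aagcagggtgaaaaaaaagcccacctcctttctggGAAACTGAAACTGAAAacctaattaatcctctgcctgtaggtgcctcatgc
PARP9 (chr3:122564297-122564376, minus strand): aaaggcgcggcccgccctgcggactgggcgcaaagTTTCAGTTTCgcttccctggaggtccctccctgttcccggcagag
DTX3L (chr3:122564297-122564376, plus strand): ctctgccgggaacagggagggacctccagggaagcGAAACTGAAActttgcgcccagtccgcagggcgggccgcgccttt
ISG15 and BST2 each had overlapping cores that form a run of GAAA units. PARP9 and DTX3L start in opposite directions from the same stretch, so the same ISRE core is read in both orientations.

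Per transcript length, ISG15, a ubiquitin-like modifier, was the most abundant of the 46 genes, with a median of 730 TPM, a level scaled for transcript length and library size, over the 16 libraries. It was followed by BST2, or tetherin, which holds virions at the cell surface, at a median of 403 TPM. IFITM3, which blocks viral fusion, was at 377 TPM, and IFIT3 and IFIT2, members of an RNA-binding protein family, were at 353 and 161. The lowest medians were those of IFI44L (1.12 TPM), MX2 (2.11) and CMPK2 (2.22). The order differed by group, since 12 of the 16 libraries were siRNA-treated: in untreated parental 231 the highest mean was that of IFIT3, 385 TPM against 353 for ISG15, and in untreated 231:TKO IFITM3 (242), BST2 (232) and IFIT3 (221) lay above ISG15 (205). The 46 genes were thus spread over a wide range of levels, all of them detected.

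**Figure D1:**
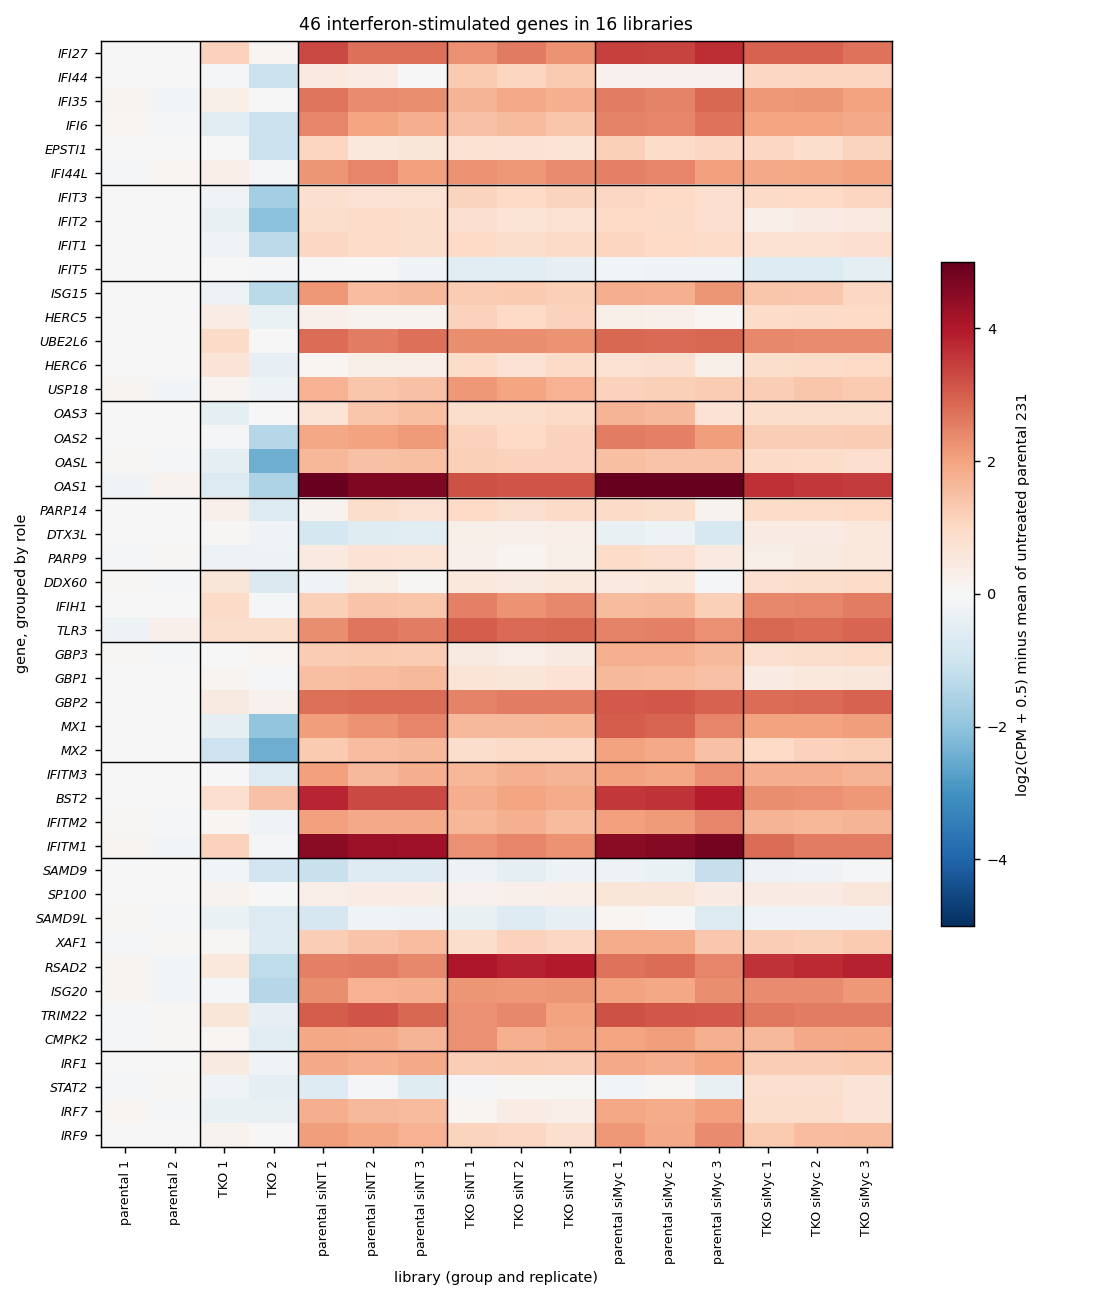
Heat map of the 46 genes (rows, grouped by role) in the 16 libraries (columns). Colour is log2(CPM + 0.5) minus the mean of the 2 untreated parental 231 libraries. Most rows are red in the 12 siRNA-treated libraries, and untreated 231:TKO replicate 2 is the bluest column.

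The siRNA-treated libraries held more of these transcripts than the untreated ones. In 231:TKO, where both groups were counted with the same release, all 3 siNT libraries lay above both untreated libraries for 42 of the 46 genes and below them for 1, IFIT5. Over 13448 genes at 1 CPM or more, 39.7% lay above and 40% below. The median log2 difference was 1.66 for the 46 genes and -0.01 for all genes. In parental 231 the counts were 40 above and 4 below, against 45.6% and 38.2% of all genes, with a median of 1.55 for the 46 genes and 0.10 for all. OAS1, an oligoadenylate synthetase that is activated by double-stranded RNA, was at 0.533 and 0.0686 CPM in untreated 231:TKO and at 14.6, 14.4 and 14.3 in 231:TKO+siNT. RSAD2, or viperin, was at 2.30 and 0.309 CPM and at 31.6, 27.6 and 29.7. MX1, a dynamin-like GTPase, was at 9.57 and 3.09 CPM and at 42.5, 43.1 and 44.8. No value of the untreated libraries reached those of the siNT libraries for these genes. Some genes were nearly flat: SP100 of the nuclear bodies differed by 0.15 on the log2 scale in 231:TKO, and SAMD9L by 0.01. The untreated libraries were sequenced as single reads and the siRNA-treated ones as read pairs under other request numbers, so transfection and sequencing cannot be told apart here, and no test was made.

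**Figure D2:**
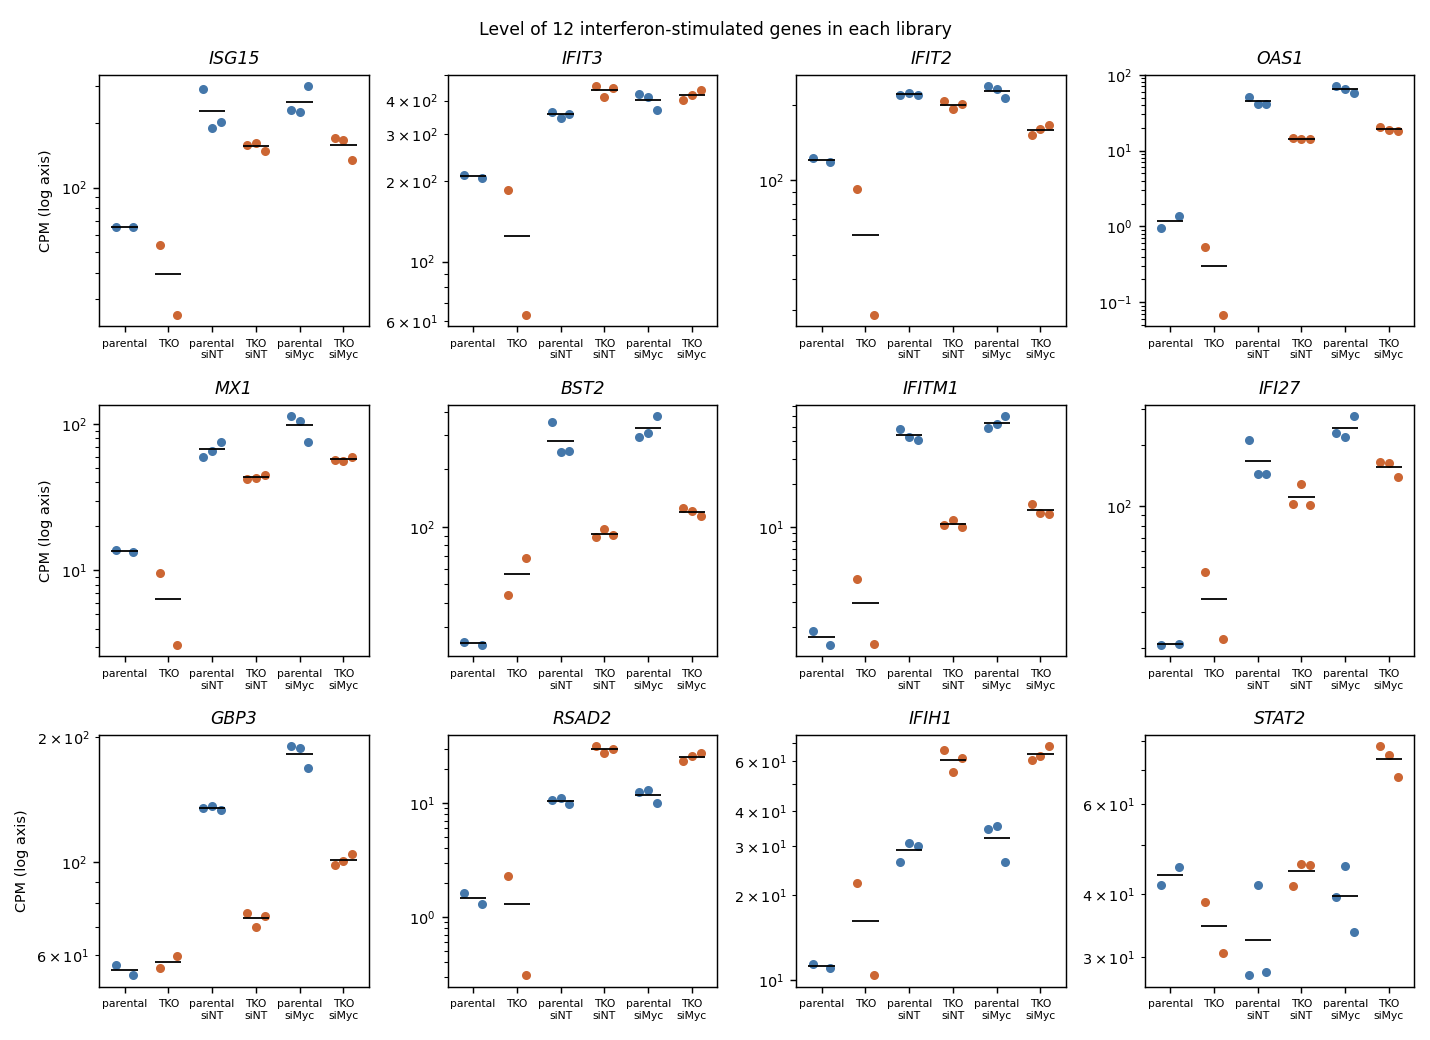
CPM (log axis) of 12 genes in each library, with parental 231 in blue and 231:TKO in orange. Points are libraries and bars are group means. For OAS1 the untreated libraries lie between 0.0686 and 1.39 CPM and the siRNA-treated ones between 14.3 and 71.1.

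The comparison of untreated 231:TKO with untreated parental 231 asked what TXNIP loss does to these genes in growing cells. No gene of the 46 passed an adjusted p of 0.05 in either direction by edgeR's quasi-likelihood test, where 5.43% of 19965 genes tested were higher and 4.18% lower. TXNIP, the deleted gene, did not pass in this fit either, at -3.29 (standard error 0.65, adjusted p = 0.0587 by edgeR). A loss of that size was not called, so the lack of calls does not show that the 46 genes were unchanged. At an unadjusted p under 0.05 there were 7 of the 46, against 5164 of the 19965 genes tested. DESeq2 called 1 of the 46 higher and 1 lower, and its share over all genes is not given here. The median log2 fold change was -0.16, against 0.00 for all genes tested. The 231:TKO libraries lay far apart. In replicate 2, 41 of the 46 genes were lower than in replicate 1, by a median of 0.70 on the log2 scale, and 17 of the 46 (37.0%) were lower by more than 1, against 2.80% of 13448 genes. Between the parental 231 libraries the median size of the difference was 0.07, and none of the 46 differed by more than 1. IFIT2 was at 123 and 118 CPM in parental 231 and at 92.1 and 28.8 in 231:TKO. IFIT3 was at 212 and 205 in parental 231 and at 186 and 63.3 in 231:TKO. OASL, a relative of the OAS enzymes that boosts RNA sensing, was at 31.6 and 29.7 and at 21.4 and 5.29. In each of these genes 231:TKO replicate 1 lay under the parental values and replicate 2 far below replicate 1. Both 231:TKO libraries lay above both parental 231 libraries for 5 of the 46 genes and below them for 20, against 33.6% and 30.6% of 13448 genes.

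Which library stood for 231:TKO decided the calls. With replicate 1 alone against parental 231, 13 genes were higher and 12 lower, against 18.1% and 17.9% of 18859 genes tested. With replicate 2 alone 2 were higher and 25 lower, against 18.5% and 19% of 18714. In these fits the lone library was assumed to vary like the parental pair. BST2 was the gene with the highest log2 fold change, 1.20 (standard error 0.23, adjusted p = 0.0513 in the same edgeR fit), from 25 and 24.1 CPM in parental 231 to 44.1 and 69.1 in 231:TKO. TLR3, the endosomal receptor for double-stranded RNA, was at 1.42 and 2.29 CPM in parental 231 and at 3.80 and 3.78 in 231:TKO, with an adjusted p of 0.0979 by edgeR. Both 231:TKO libraries were higher for these 2 genes. SAMD9L and IFI6 went the other way, with log2 fold changes of -0.51 and -0.85 and adjusted p-values by edgeR of 0.0930 and 0.0988.

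**Figure D3:**
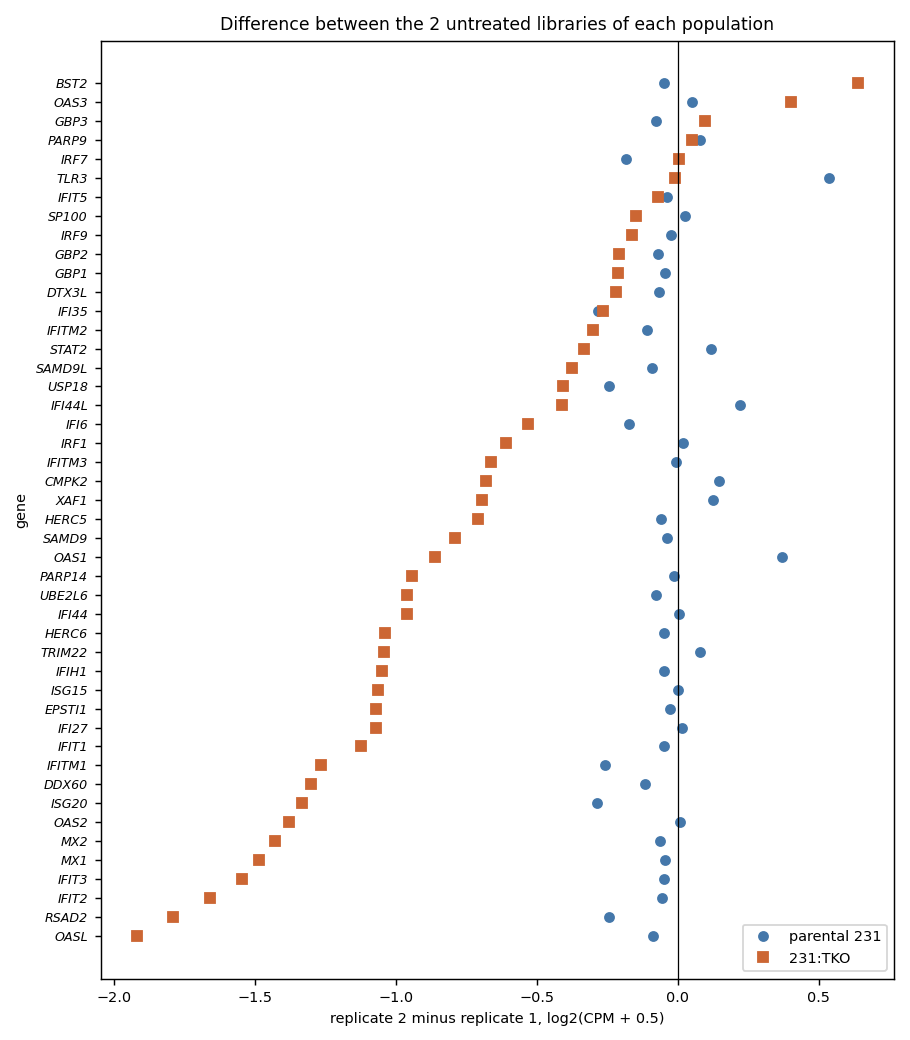
Replicate 2 minus replicate 1 in log2(CPM + 0.5) for each of the 46 genes, in untreated parental 231 (blue circles) and untreated 231:TKO (orange squares). The parental values stay between -0.29 and 0.54, and those of 231:TKO reach -1.92.

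Between the siNT-treated populations, 12 of the 46 genes were higher and 21 lower in 231:TKO, against 16.1% higher and 20.7% lower of 23310 genes tested. Between the siMyc-treated populations 8 were higher and 25 lower, against 18.8% and 21.7% of 23561. All 46 genes lie at 1 CPM or more in both comparisons. Among 13485 genes at that level, 3020 were higher and 3816 lower with siNT. With siMyc 3420 were higher and 3994 lower among 13511 such genes. The medians of the 46 genes were -0.22 with siNT and -0.43 with siMyc, beside -0.03 and -0.01 for all genes tested. The same 8 genes were higher in both treatments and the same 21 were lower, and none was called in opposite directions. Among all 13448 genes at 1 CPM or more, 0.0521% lay on opposite sides in the 2 treatments. The treatments share no library but share the difference in release and request. Among the 26 genes of equal length in both releases, 9 were higher and 11 lower with siNT, and 6 and 11 with siMyc. Among the 20 others the counts were 3 and 10 with siNT, and 2 and 14 with siMyc. Without parental 231+siNT replicate 1 the siNT counts were 13 higher and 25 lower, against 22.4% and 25.8% of 22568 genes tested, and without parental 231+siMyc replicate 3 the siMyc counts were 10 and 29, against 23.1% and 26.6% of 22849. Without 231:TKO+siNT replicate 1 the count of higher genes with siNT was 7, against 12.1% of 22794 genes higher and 15.6% lower. Without the libraries that stand apart, GBP2 and SAMD9L were called lower in both treatments and ISG20 higher. PARP14 was called higher and IFITM2 lower with siNT, and IFIT1 lower and HERC6 higher with siMyc. HERC6 was then at 0.15 (0.06). The siNT values of IFI6, IFI27 and ISG15 shrank to -0.36 (0.07), -0.32 (0.08) and -0.28 (0.06) and that of IFITM3 with siMyc to -0.21 (0.05), all still called lower.

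The receptor and helicase genes grouped as RNA sensors and partners, IFIH1, TLR3 and DDX60, were higher in 231:TKO, 3 of 3 in both treatments. IFIH1, the helicase that recognises long double-stranded RNA, was at 26.3, 30.8 and 29.9 CPM in parental 231+siNT and at 66.0, 55.0 and 61.5 in 231:TKO+siNT. With siMyc it was at 34.4, 35.4 and 26.3 and at 60.5, 62.9 and 67.9, so no library of one population reached the other. Its log2 fold changes were 1.11 (standard error 0.11) and 1.00 (0.12), with adjusted p-values of 1.41e-05 and 2.04e-05 by edgeR. The 21 other genes within 5 Mb of IFIH1 had a median of 0.49 with siNT. TLR3 was higher by 0.43 (0.12) and 0.44 (0.10). DDX60, a helicase that promotes RNA sensing, was higher by 0.47 (0.12) and 0.56 (0.13), and its annotated length differed between the releases.

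The genes of the ISG15 pathway were split. HERC5, the ligase that attaches ISG15 to new proteins, was at 68.7, 65.3 and 64.6 CPM in parental 231+siNT and at 126, 113 and 126 in 231:TKO+siNT, with log2 fold changes of 0.91 (0.09) with siNT and 0.75 (0.09) with siMyc. HERC6 was higher by 0.67 (0.10) with siNT and at 0.30 (0.13) with siMyc, past the threshold in siNT alone. USP18, which removes ISG15 and dampens the interferon receptor, was higher by 0.53 (0.16) with siNT and at 0.13 (0.13) with siMyc. ISG15 itself fell by 0.51 (0.14) with siNT and by 0.67 (0.13) with siMyc. UBE2L6, the enzyme that carries ISG15 to the ligase, fell by 0.37 (0.09) and 0.48 (0.09). HERC5 was thus higher where ISG15 and UBE2L6 were lower.

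PARP9 and DTX3L, partners in an ADP-ribosyl and ubiquitin ligase complex, moved in opposite directions and share the stretch shown above. DTX3L was at 23.6, 29.0 and 30.4 CPM in parental 231+siNT and at 55.0, 52.4 and 55.1 in 231:TKO+siNT, with log2 fold changes of 1.01 (0.11) and 0.92 (0.13). PARP9 was at 20.8, 24.2 and 24.0 and at 17.6, 16 and 17.9, with -0.39 (0.10) and -0.34 (0.12), and adjusted p-values of 0.0131 and 0.0430 by edgeR. Their lengths were equal in both releases. In the untreated cells, where one release was used, DTX3L was at 45.3 and 43.2 CPM in parental 231 and at 46.2 and 39.5 in 231:TKO.

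All 4 restriction factors of the membrane had negative fold changes. BST2 was at 351, 247 and 248 CPM in parental 231+siNT and at 88.2, 97.8 and 90.5 in 231:TKO+siNT, a log2 fold change of -1.58 (0.13), and -1.44 (0.11) with siMyc. Its length did not differ between the releases, and the 170 neighbouring genes had a median of -0.55 with siNT. IFITM1 was at 48.8, 42.8 and 40.4 CPM and at 10.3, 11.2 and 9.96, with -2.03 (0.11) in both treatments, the largest fall among the 46 genes. IFITM2 and IFITM3 were called lower with siMyc alone, at -0.53 (0.11) and -0.31 (0.10), and were at -0.23 and -0.09 with siNT. In the older release the bases shared by IFITM1 and IFITM2 apply to 231:TKO alone in these comparisons. In the newer release IFITM1 shared 351 of 1666 exon bases (21.1%) with another gene, which had 2 counts in the parental siRNA libraries. The IFITM genes are close paralogs with shared exon bases, so their separate values are uncertain.

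Of the 4 OAS genes, 3 were lower. OAS1 was at 50.1, 41.6 and 41.6 CPM in parental 231+siNT and at 14.6, 14.4 and 14.3 in 231:TKO+siNT, with -1.59 (0.10) with siNT and -1.75 (0.11) with siMyc. OAS2 was lower, at -0.90 (0.10) and -1.15 (0.12), and so was OASL, at -0.36 (0.09) and -0.53 (0.09). OAS3 was at -0.31 (0.19) and -0.55 (0.23) and did not pass the threshold with all libraries. Parental OAS3 was at 63.7, 106 and 114 CPM with siNT and at 132, 125 and 65.3 with siMyc, the lowest value of each being that of the library that stands apart. Without these libraries OAS3 was called lower, at -0.51 (0.06) and -0.80 (0.06). OAS1, OAS2 and OAS3 lie side by side on chromosome 12 from 112906783 to 113011723, and all 4 gene models were longer in the newer release. The 63 neighbours of OAS1 had a median of -0.38.

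Of the 5 interferon-induced GTPases, 4 were lower in both treatments. GBP3, a guanylate-binding protein, was at 135, 137 and 133 CPM in parental 231+siNT and at 75.7, 70.0 and 74.5 in 231:TKO+siNT, with -0.84 (0.08) and -0.84 (0.09). Its length was the same in both releases. GBP1 was at -0.84 (0.09) and -1.06 (0.10), MX1 at -0.59 (0.10) and -0.77 (0.13), and MX2, which acts on nuclear entry of viral genomes, at -0.56 (0.12) and -0.71 (0.14). GBP2 did not pass the threshold, at -0.20 (0.08) and -0.19 (0.09).

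Of the transcription factors, IRF7, IRF9 and IRF1 were lower and STAT2 was higher. IRF7, which amplifies the type I response, was at 30.9, 26.6 and 26.3 CPM in parental 231+siNT and at 9.11, 11.2 and 10.9 in 231:TKO+siNT, with log2 fold changes of -1.39 (0.11) and -1.16 (0.11). IRF9, the DNA-binding partner of the STATs, was at -0.99 (0.15) and -0.71 (0.14), and 42.2% of its exon bases were shared with an overlapping gene in both releases. IRF1 was at -0.58 (0.08) and -0.62 (0.09). STAT2 was at 27.7, 41.7 and 28.1 CPM and at 41.5, 45.9 and 45.7 with siNT, where the populations overlapped, and its log2 fold change was 0.48 (0.15, adjusted p = 0.0277 by edgeR). The siNT call was lost when any 1 library other than parental 231+siNT replicate 2 was left out, and without parental 231+siNT replicate 1 the value was 0.40 with an adjusted p of 0.187 by edgeR. With siMyc STAT2 was at 39.5, 45.5 and 33.6 CPM and at 78.0, 75.2 and 67.8, with 0.90 (0.12).

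Among the IFIT genes, IFIT5 was lower in both treatments, at -0.39 (0.09) and -0.41 (0.10). IFIT3 was higher with siNT at 0.33 (0.08) and at 0.07 (0.09) with siMyc, and IFIT2 was at -0.10 (0.08) with siNT and lower with siMyc at -0.52 (0.09). IFIT1 was called in neither. RSAD2 had the largest rise of the 46 genes: it was at 10.7, 11.1 and 9.74 CPM in parental 231+siNT and at 31.6, 27.6 and 29.7 in 231:TKO+siNT, with 1.53 (0.10) and 1.11 (0.12). RSAD2 and IFIT3 were among the genes whose annotated length differed between the releases, as were MX1, GBP1, IRF1 and IFITM1, and the part of this in their values was not tested. CMPK2, a nucleotide kinase gene that starts beside RSAD2 in the opposite direction, did not pass the threshold, at 0.23 (0.18) and -0.13 (0.16). SAMD9, a growth and virus restriction factor, was higher with siNT at 0.49 (0.13) and at 0.36 (0.21) with siMyc. Without the libraries that stand apart SAMD9 was at 0.37 (0.06) with siNT, still called, and at 0.12 (0.06) with siMyc, not called. TRIM22 was lower, at -0.78 (0.14) and -0.57 (0.10), and so was XAF1, a pro-apoptotic protein, at -0.34 (0.12) and -0.47 (0.13). Of the transcripts named for their induction, IFI44 was higher at 0.97 (0.13) and 0.87 (0.09). IFI27 was lower at -0.55 (0.16) and -0.63 (0.11), IFI35 at -0.64 (0.11) and -0.52 (0.12) and IFI6 at -0.58 (0.15) and -0.58 (0.11). IFI44L, the neighbour of IFI44, was lower with siMyc alone, at -0.45 (0.16).

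**Figure D4:**
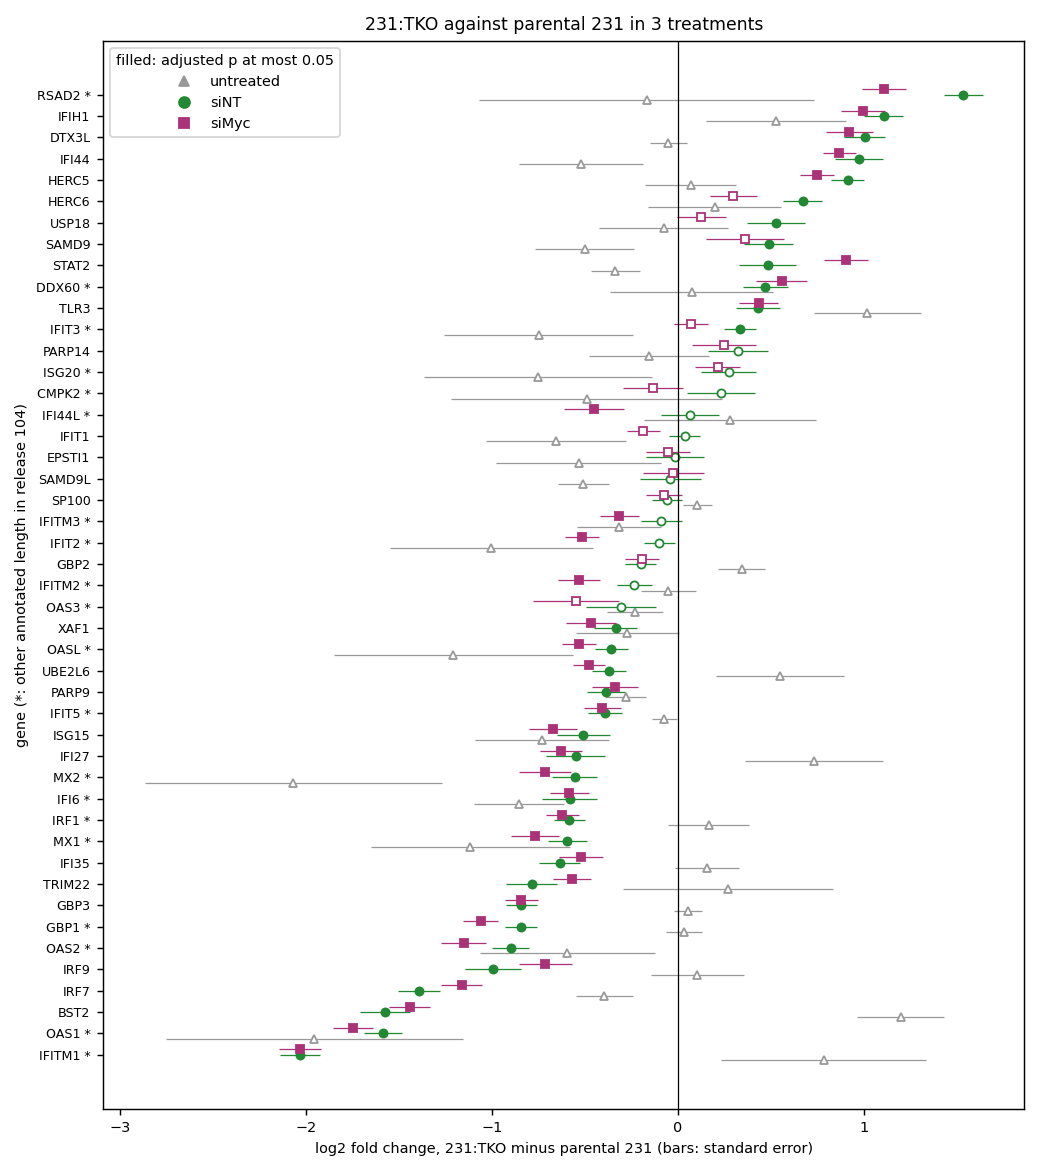
Log2 fold change of 231:TKO minus parental 231 for the 46 genes, untreated (grey triangles), with siNT (green circles) and with siMyc (purple squares). Bars are standard errors, filled symbols passed an adjusted p of 0.05, and an asterisk marks an annotated length that differed between releases. RSAD2 and IFIH1 lead the genes higher with siNT, and IFITM1, OAS1, BST2 and IRF7 have the lowest values.

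Myc knockdown in 231:TKO asked which of these genes depend on Myc where TXNIP is absent. With siMyc, 17 of the 46 genes were higher and 9 lower than with siNT, against 13.3% and 13.9% of 22450 genes tested. Among 13406 genes at 1 CPM or more, where all 46 genes lie, 2800 were higher and 2976 lower. All changes were below 1 on the log2 scale, from -0.77 to 0.70, with a median of 0.09 beside 0.01 for all genes tested. Every siMyc library lay above every siNT library for 24 of the 46 genes and below for 7, against 30.7% and 23.1% of 13448 genes. The siNT and siMyc libraries of 231:TKO are also those of the comparisons with parental 231. The count of lower genes ranged from 3 to 11 when single libraries were left out. It was 3 without 231:TKO+siNT replicate 1, 4 without replicate 3 of that group, 4 without 231:TKO+siMyc replicate 1 and 5 without replicate 2, where 11.1%, 11.3%, 12.3% and 11.3% of all genes tested were lower.

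The transcription factors rose most, 3 of 4. STAT2 was at 41.5, 45.9 and 45.7 CPM with siNT and at 78.0, 75.2 and 67.8 with siMyc, so every siMyc library lay above every siNT library. It rose by 0.70 on the log2 scale (standard error 0.06), with an adjusted p of 4.59e-08 by edgeR. IRF9 was at 4.08, 3.79 and 3.16 CPM and at 4.79, 5.72 and 5.78, a rise of 0.53 (0.12, adjusted p = 0.00222 by edgeR). IRF7 was at 9.11, 11.2 and 10.9 CPM and at 16.1, 16.1 and 13.3, a rise of 0.51 (0.10, adjusted p = 0.000280 by edgeR). The groups did not overlap for either gene. IRF1 was at -0.01 (0.05).

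Downstream genes were divided. IFI27, a mitochondrial and nuclear envelope protein, was at 101 to 129 CPM in the 3 siNT libraries and at 166, 164 and 139 with siMyc, a rise of 0.46 (0.08). IFI6, an inhibitor of viral replication at the endoplasmic reticulum, rose by 0.44 (0.07), and GBP3 by 0.43 (0.05), from 75.7, 70.0 and 74.5 CPM to 98.4, 101 and 105. BST2, MX1, OAS1, DDX60, TRIM22, IFI35, GBP2, IFITM1, EPSTI1, SAMD9L and SP100 also rose, by 0.16 to 0.37. USP18 had the largest fall, from 6.87, 5.84 and 4.99 CPM to 3.32, 3.75 and 3.55, at -0.77 (0.13, adjusted p = 7.19e-05 by edgeR). IFI44L was at -0.39 (0.12) and was not called by DESeq2. Of the 4 IFIT genes, IFIT2 and IFIT1 fell and none rose: IFIT2 went from 208, 194 and 203 CPM to 152, 160 and 167, at -0.37 (0.05). OASL, RSAD2, GBP1, IFI44 and HERC5 also fell, by 0.16 to 0.29.

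The same knockdown in parental 231 gave no call among the 46 genes with all 6 libraries, where 0.24% of 23728 genes tested were higher and 0.354% lower. At an unadjusted p under 0.05 there were 11 of the 46, against 3462 of the 23728 genes tested. DESeq2 called 3 of the 46 higher, and its share over all genes is not given here. The fold changes leaned one way: 41 of the 46 were positive, with a median of 0.20 beside 0.00 for all genes tested. Every siMyc library lay above every siNT library for 10 of the 46 genes and below for 1, against 12.5% and 14.8% of 13448 genes. Each group held 1 of the 2 libraries that stand apart. In them, SAMD9 was at 50.8 CPM with siNT, beside 70.5 and 69.0 in the other replicates, and at 48.8 with siMyc, beside 92.9 and 87.6.

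With both of these libraries left out, an alternative added after the data had been seen, 28 of the 46 genes were higher with siMyc and 0 lower, against 9.94% and 10.9% of 22445 genes tested. A factor for the 2 libraries in a fit of all 6 gave 28 higher and 1 lower, USP18, against 13.7% and 13.1%. The median log2 fold change was 0.25 without the libraries and 0.19 with the factor. Without them, OAS1 rose by 0.70 (0.06) from 41.6 and 41.6 CPM to 71.1 and 64.1. IFI27 rose by 0.65 (0.05) from 144 and 143 CPM to 230 and 220. MX1 rose by 0.63 (0.06) from 66.2 and 75.7 CPM to 114 and 106. The other genes with the largest rises were IFI6 (0.55), EPSTI1 (0.53), HERC6 (0.49), GBP3 (0.48) and OAS2 (0.45). USP18 was at -0.29 in this fit and did not pass. With 2 libraries in each group the spread was estimated from few values.

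Whether the populations responded differently was tested as an interaction over the 12 siRNA-treated libraries. None of the 46 genes passed, in a fit where 0% of 25812 genes were called higher and 0% lower. At an unadjusted p under 0.05 there were 6 of the 46, against 1039 of the 25812 genes tested. DESeq2 called 1 of the 46 lower, and its share over all genes is not given here. The median difference was -0.09, beside 0.03 for all genes tested. Without the 2 libraries that stand apart, 6 genes had a lower response in 231:TKO than in parental 231 and 0 a higher one, against 0.152% and 0.0999% of 25019 genes. With the factor, IFIT2, RSAD2 and HERC6 were lower and 0 higher, against 0.174% and 0.395% of 25812.

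Without these libraries, the difference was -0.49 (standard error 0.08, adjusted p = 0.000407 by edgeR) for IFIT2, which was at 225 and 220 CPM with siNT and 240 and 233 with siMyc in parental 231 and fell in 231:TKO as given above. For HERC6 it was -0.49 (0.10, adjusted p = 0.00855 by edgeR), with 32.4 and 32.9 CPM against 45.3 and 46.3 in parental 231, and 50.7, 43.6 and 51.3 against 48.7, 50.5 and 53.0 in 231:TKO. For RSAD2 it was -0.58 (0.12), for IFIT3 -0.37 (0.08), for IFIT1 -0.34 (0.08) and for OAS2 -0.38 (0.09). These genes, 3 of the 4 IFIT genes among them, rose or were flat with siMyc in parental 231. In 231:TKO they fell or were flat, except for OAS2. It was at 54.6, 48.7 and 55.0 CPM with siNT and at 58.2, 58.5 and 59.0 with siMyc, without overlap but not called. STAT2, which rose most in 231:TKO, had a difference of 0.44 (0.20, unadjusted p = 0.0462 by edgeR) over all 12 libraries, and was not called in any of these fits.

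**Figure D5:**
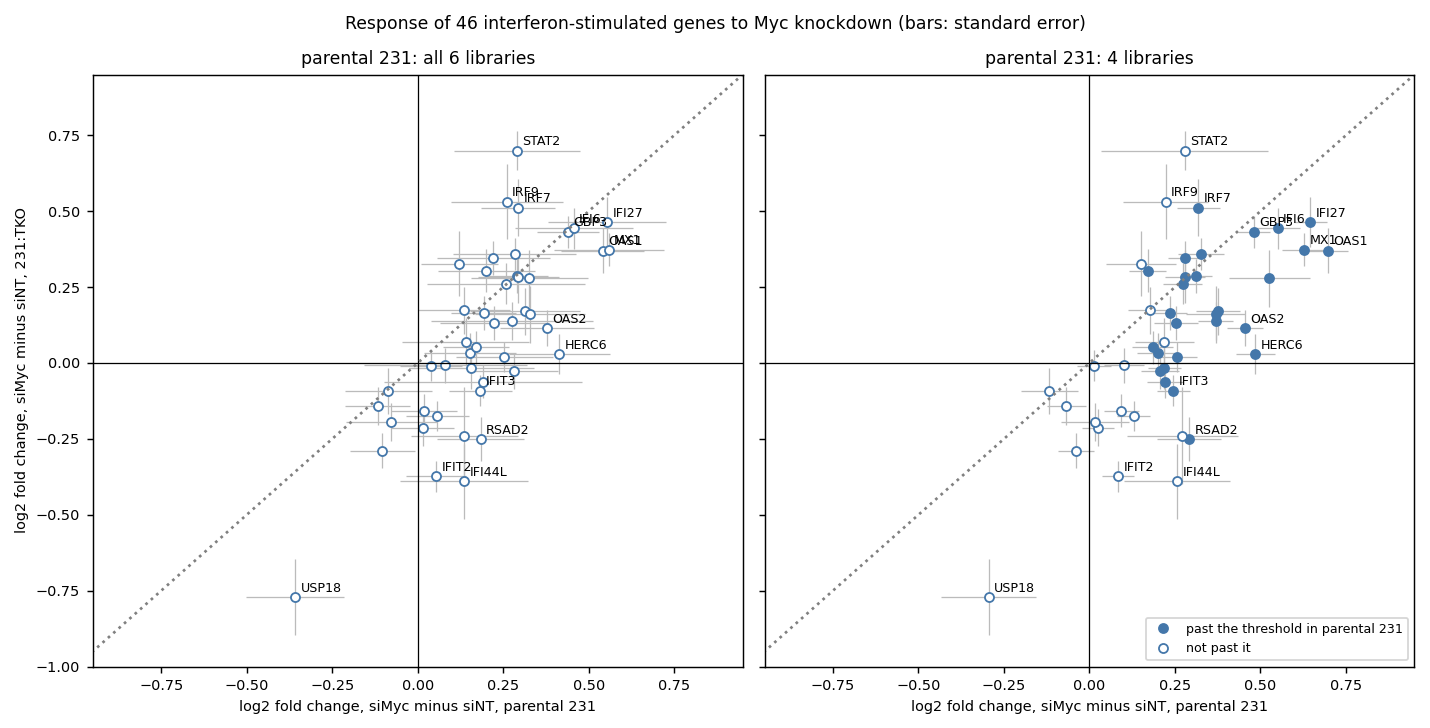
Log2 fold change of siMyc minus siNT in parental 231 (x axis) and in 231:TKO (y axis) for the 46 genes, with all 6 parental libraries on the left and without the 2 that stand apart on the right. Bars are standard errors, filled points passed an adjusted p of 0.05 in parental 231, and the dotted line marks equal responses. On the right, 28 points are filled, and IFIT2, RSAD2, IFIT3 and HERC6 lie below the line.

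The genes that act before these 46 were followed in a list of 46 ligands, receptors, kinases, sensors and regulators, of which the ligands were nearly silent. IFNA1, IFNA2, IFNB1, IFNE, IFNG, IFNK and IFNW1 had 0 counts in all 16 libraries, which allows up to 3 counts in each. IFNL1, a type III interferon, had 107 counts in 12 libraries, all of them siRNA-treated, and was at 0.475, 0.306 and 0.479 CPM in 231:TKO+siNT against 0.194, 0.186 and 0.171 in parental 231+siNT. Its log2 fold change there was 1.22 (0.37, adjusted p = 0.0236 by edgeR). With siMyc it was -0.21 (0.67) and not called, and in 231:TKO IFNL1 was called lower with siMyc than with siNT, at -1.76 (0.46), with 0.170, 0.054 and 0.151 CPM. In the untreated cells, 2 genes of the 33 tested were higher in 231:TKO and 2 lower, against 5.43% and 4.18% of 19965 genes. SOCS1, an inhibitor of JAK kinases, was higher at 1.28 (0.22), from 1.58 and 1.64 CPM to 3.63 and 4.26. IRF5 was lower at -2.07 (0.35) and STAT3 at -0.57 (0.09).

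Between the siNT-treated populations 13 of 36 were higher and 7 lower, against 16.1% and 20.7% of 23310 genes. Between the siMyc-treated ones 12 of 35 were higher and 8 lower, against 18.8% and 21.7% of 23561 genes. RIGI, the sensor of RNA ends, had the largest value, 4.94 (0.23) with siNT and 4.87 (0.30) with siMyc. It was at 3.00, 5.40 and 5.53 CPM in parental 231+siNT and at 153, 122 and 144 in 231:TKO+siNT, but at 117 and 115 in untreated parental 231 and 90.3 and 43.5 in untreated 231:TKO. The exon length of RIGI was 4640 bases in the older release and 10345 in the newer release. In the newer release, 4471 of these bases (43.2%) were shared with another gene on its strand, in the older release none were, and the part of this in the result was not tested. JAK1, whose length did not change, was higher by 1.03 (0.14), from 93.5, 130 and 141 CPM to 238, 243 and 245. PTPN6, a phosphatase that restrains JAK kinases, was at -1.97 (0.20), SOCS1 at -1.05 (0.12), SOCS3 at -0.55 (0.08), IL10RB at -0.62 (0.15) and TYK2 at -0.56 (0.10). IRF5 was at 1.11 (0.15) and DHX58 at 0.64 (0.11). SOCS1 and IRF5 thus had opposite signs in the untreated and the siNT-treated cells. With siMyc against siNT in 231:TKO 8 of 35 were higher and 3 lower, against 13.3% and 13.9% of 22450 genes. In parental 231 none of 35 passed, where 0.24% of 23728 genes were higher and 0.354% lower.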

How the data were processed

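The authors deposited raw counts per gene for 16 stranded mRNA libraries, made by alignment with STAR to GRCh38 and counting with featureCounts 1.6.3 on the reverse strand with reads assigned by largest overlap. Ensembl release 104 was used for the siRNA-treated parental 231 libraries and release 102 for the others, and untreated libraries were single reads where the siRNA-treated ones were read pairs. Symbols were found for 96.7% of identifiers. Genes whose counts summed to more than 5 in the libraries of a comparison entered edgeR 4.0.16 (TMM scaling, robust quasi-likelihood F test, R 4.3.3), with Benjamini-Hochberg adjustment over all genes tested and a threshold of 0.05. CPM used TMM factors over all 16 libraries, and log2 levels added 0.5. Depth ran from 18953668 to 59799444 counts, and limits from 3 counts cover counting error only. Alternatives were DESeq2 1.42.0, its size factors in edgeR, no filter, a replicate block and leaving out each replicate. Leaving out, or a factor for, the libraries that stand apart was added after the data had been seen. The fits were tested on simulated data. The text names every member called between 231:TKO and parental 231 at 1 CPM or more, every member called in the interaction, the 8 called members with the largest change in each siMyc response, the 5 highest by TPM, and up to 10 called genes of the upstream list. The same rule was applied to the added fits, and other members named were chosen after their values were seen. The members and lists were chosen with earlier results of these data known. Some genes of the marker and upstream lists are not reported here by name.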

Additional observations from a re-analysis of the deposited data

Results flagged for a closer look

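Between the untreated and the siNT-treated cells, 7 of the 46 genes had every 231:TKO library on one side of parental 231 in the first and on the opposite side in the second, against 16.1% of 13448 genes at 1 CPM or more. The share among the 46 genes was thus close to that of all genes. The difference between the contrasts was not tested. The log2 fold changes without and with siNT were 1.20 and -1.58 for BST2, 0.73 and -0.55 for IFI27, and 0.34 and -0.20 for GBP2. They were -0.52 and 0.97 for IFI44, -0.75 and 0.33 for IFIT3, and -0.50 and 0.49 for SAMD9. SP100 had 0.11 and -0.058. No untreated value passed the threshold, and with siNT those of GBP2 and SP100 did not pass it either.

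Between the untreated and the siMyc-treated cells, the same was found for 4 of the 46 genes. This share was below the 17.2% of all genes, and the difference was not tested either. BST2 had 1.20 untreated and -1.44 with siMyc, and IFI27 had 0.73 and -0.63. IFI44 had -0.52 and 0.87, and STAT2 had -0.34 and 0.90. The untreated parental 231 libraries were counted with another annotation release than the siRNA-treated ones, and the part of this in the opposite signs was not tested. All of these genes except IFIT3 had the same annotated length in both.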

How the results depend on the processing

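With DESeq2, untreated 231:TKO had 1 gene of the 46 higher and 1 lower than parental 231, siMyc in parental 231 had 3 higher, and the difference between siMyc responses had 1 lower, where edgeR called 0 in each. The shares of all genes called by DESeq2 are not given here. Without the filter on low counts, 1 of the 46 was lower in untreated 231:TKO. Without both libraries that stand apart, siMyc in parental 231 had 28 higher, and the difference between responses had 6 lower with a median of -0.23. With a factor for these libraries the counts were 28 higher and 1 lower in parental 231 and 3 lower for the difference between responses. With single libraries left out, the counts in untreated 231:TKO ranged from 0 to 13 higher and from 0 to 25 lower, and those of 231:TKO+siNT from 7 to 13 higher, with 7 without 231:TKO+siNT replicate 1, and a median from -0.25 to -0.15. For siMyc in 231:TKO they ranged from 3 to 11 lower, with a median from 0.060 to 0.10. For siMyc in parental 231 they ranged from 0 to 1 higher, and the median difference between responses ranged from -0.18 to -0.036. The cause of these changes was not tested. With DESeq2's size factors all 18 counts and medians stayed within the limits used here, and XAF1 in siNT lost its call.

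Between siNT and siMyc, same-numbered deviations had correlations of -0.81, 0.63 and -0.75 in parental 231 and of -0.15, 0.13 and 0.27 in 231:TKO. In parental 231 the libraries that stand apart, siNT replicate 1 and siMyc replicate 3, had a correlation of 0.90 with each other. Each siRNA-treated parental group held one of them, and the values of 231:TKO were of both signs. These correlations therefore cannot decide whether same-numbered libraries were paired. With the replicate number as a block, 12 were higher and 21 lower in 231:TKO+siNT, 8 and 22 in 231:TKO+siMyc, and 18 and 10 for siMyc in 231:TKO. Among single members, 49 values lost their call when a library was left out, 395 did not, and none reversed.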
